A study of Mus musculus with 4 samples.

Results

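The genes described here are 7 of the 31053 genes in the deposited count tables: the interleukin 1 (IL-1) agonists Il1a and Il1b, the antagonist Il1rn, the signalling receptor Il1r1 with its accessory chain Il1rap, the decoy receptor Il1r2, and the related cytokine gene Il18. They were taken by symbol, and all 7 were found. Kidneys came from male C57BL/6 mice aged 19 months that were given BPTES or its vehicle DMSO over 1 month. Each group had 2 libraries. BPTES blocks glutaminase 1 (GLS1), the enzyme that converts glutamine to glutamate. Each library was a mixture of 20000 CD45-negative and 9000 CD45-positive sorted cells from a digested kidney, so leukocytes are present at a share set by the sort. The labels do not say that the libraries of a group came from separate animals, so the p-values below measure the spread between these libraries, which may be technical.

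IL-1 alpha (from Il1a) and IL-1 beta (from Il1b) bind the same receptor, the product of Il1r1, which then recruits the accessory chain encoded by Il1rap and signals through MyD88 to NF-kB. The antagonist from Il1rn occupies that receptor without recruiting the accessory chain, and the product of Il1r2 binds the agonists but lacks a signalling domain. IL-1 beta and IL-18 are made as precursors that caspase-1 cleaves in inflammasomes, whereas the uncleaved form of IL-1 alpha is already active. Myeloid cells are known as a main source of IL-1, and endothelium, stroma, epithelium and several lymphocyte subsets are known to respond to it. Transcript counts report neither cleavage nor release of these proteins.

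Il1a lies on the minus strand of chromosome 2 at 129299610 to 129309972 (GRCm38) and Il1b on the same strand at 129364570 to 129371139, 54597 bases away. The antisense gene Il1bos overlaps Il1b. Il1rn lies on the plus strand of chromosome 2 at 24336853 to 24351494. Il1r2 and Il1r1 are neighbours on the plus strand of chromosome 1, at 40074079 to 40125231 and 40225080 to 40317257, with 99848 bases between them. Il18 lies on the plus strand of chromosome 9 at 50554827 to 50581840, and Il1rap on the plus strand of chromosome 16 at 26581704 to 26730117. All of these are protein-coding genes, and the intervals are whole genes with exons, introns and untranslated parts. The promoters of Il1a, Il1b and Il1rn are shown because these genes code for the 3 ligands of the IL-1 receptor that the results turn on. Each line gives the 250 bases before the RefSeq start (GRCm38.p6), 5′ to 3′ on the strand of the gene, and capitals mark letters that match a searched motif. The intervals are chr2:129309973-129310222 (minus), chr2:129371140-129371389 (minus) and chr2:24336610-24336859 (plus, the first of 3 RefSeq starts of Il1rn).
Il1a: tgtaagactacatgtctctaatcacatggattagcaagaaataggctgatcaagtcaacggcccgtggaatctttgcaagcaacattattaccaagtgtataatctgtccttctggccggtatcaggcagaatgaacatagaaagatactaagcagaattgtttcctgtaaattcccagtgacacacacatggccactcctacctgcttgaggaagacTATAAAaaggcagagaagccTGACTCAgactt
Il1b: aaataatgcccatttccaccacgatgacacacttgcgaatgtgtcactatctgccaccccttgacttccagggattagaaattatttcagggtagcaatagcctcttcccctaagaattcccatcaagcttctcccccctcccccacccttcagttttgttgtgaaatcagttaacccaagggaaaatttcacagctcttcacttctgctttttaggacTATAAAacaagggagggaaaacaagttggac
Il1rn: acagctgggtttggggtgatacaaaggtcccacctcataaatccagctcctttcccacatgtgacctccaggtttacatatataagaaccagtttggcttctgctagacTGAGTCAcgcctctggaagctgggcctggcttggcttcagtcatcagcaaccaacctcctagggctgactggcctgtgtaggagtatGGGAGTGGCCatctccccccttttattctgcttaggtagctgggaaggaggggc
The motifs searched on both strands were the TATA box, spelled TATAAA, an AP-1-like motif, spelled TGANTCA, an NF-kB-like motif, spelled GGGNNNNNCC, and a C/EBP-like motif, spelled TTGCNNAA. The Il1a promoter held TATAAA at position -32 from the start and TGACTCA at -12, the Il1b promoter held TATAAA at -31, and the Il1rn promoter held TGAGTCA at -141 and GGGAGTGGCC at -54. Of 32851 RefSeq promoters cut to the same length, 12.4% held TATAAA, 6.75% TGANTCA, 45.8% GGGNNNNNCC and 9.56% TTGCNNAA. The motifs did not overlap one another in these 3 windows, and a match is a run of letters and not a shown binding site.

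The libraries held 249881074 to 297947661 unique molecular identifiers (UMIs), and 46738 of 76278 barcodes were kept as cells. The median mitochondrial share of kept cells was higher under BPTES (4.96% and 6.13%) than under DMSO (3.83% and 3.79%). Between 90 and 114 barcodes were shared by any pair of libraries. Clusters were named by fixed marker genes, so that each name stands for cells like that type, and tests were run in the 17 classes that had 20 or more cells in each of the 4 libraries. In 8 clusters (5664 cells, 12.1%) no name was given. A level is given in CPM, counts per 1e+06 UMIs of the cells summed. CPM values that stand beside a fold change were scaled within the class by the TMM method, and others are unscaled and called so. DMSO 2 stood apart in neutrophil and macrophage markers: its neutrophils carried less of the 6 neutrophil markers (summed unscaled CPM of 46430, against 64544 to 83612 in the other libraries), its macrophages carried more of them (138 against 66.2 to 77.0), and its B cells held macrophage markers at 5337 unscaled CPM against 404 to 526. Pairs of a gene and a class whose call changes without it are given with that value. With 1 library left out, its partner is taken to vary like the other group, and the number of calls over all genes (969 in the whole set) moved to between 710 and 10661, so a call gained or lost in this way is read beside its fold change.

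Summed over all kept cells, both agonists, the antagonist and both receptors of IL-1 were lower in each BPTES library than in each DMSO library, and so were Il18 and Il1rap. The share of all genes whose groups lie apart in such sums was not computed, so this separation is a description only. Il1a stood at 1.25 and 1.18 unscaled CPM under BPTES and at 5.29 and 11.2 under DMSO, a 6.79-fold difference of means (1.22 ± 0.0454 against 8.25 ± 4.19, SD, n = 2 each), and 4.35-fold without DMSO 2. Il1rn stood at 4.15 and 5.6 against 9.29 and 31.9, a 4.23-fold difference that was 1.91-fold without DMSO 2. Il1b, by far the most abundant of the 7, stood at 427 and 472 against 583 and 642, a 1.36-fold difference, and Il1r2 at 77.7 and 73.7 against 100 and 107. The groups lay nearer to each other for Il18 (11 and 11 against 17.7 and 11.8), Il1r1 (17.2 and 15.7 against 17.7 and 20.1) and Il1rap (24.4 and 24.6 against 26.2 and 25.9). For Il1r1 the groups overlapped without plasma cells (18.0 and 16.8 against 17.9 and 20.3), a class of 186 and 211 cells under BPTES and 53 and 27 under DMSO, while those of the other 6 genes did not. DMSO 2 also had 234 fibroblasts, against 19 and 29 in the BPTES libraries and 46 in DMSO 1. They held 22.5% of the Il1r1 UMIs of DMSO 2, against 1.76% and 4.35% under BPTES and 4.86% in DMSO 1. Their part in the Il1r1 difference was not tested. With 2 libraries against 2, the exact two-sided permutation test cannot go below p = 0.333, the value it gave for each of the 7 genes. In these sums over all cells, a smaller share of producing cells and less RNA per cell cannot be told apart, so the classes were also compared separately. Dendritic cells numbered 439 and 427 under BPTES against 842 and 525 under DMSO, and neutrophils 203 and 191 against 241 and 293. Macrophages numbered 765 and 685 against 832 and 827, while monocytes were more numerous under BPTES (372 and 391 against 302 and 163).

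Across the 17 classes, 82 pairs of a gene and a class passed the filter on low counts, and 5 of them (6.10%) changed at an adjusted p under 0.05 by edgeR's quasi-likelihood test, all of them lower under BPTES. Over all genes the same test called 969 of 193308 pairs (0.501%), and an unadjusted p under 0.05 was reached by 31 of the 82 pairs (37.8%) against 13.1% of all pairs. The median log2 fold change of the 82 pairs was -0.25, with 54 lower and 28 higher, while the medians over all genes of a class lay between -0.028 and 0.0035. Il1a was lower in 6 of 6 and Il1rn in 7 of 7 classes tested. Of the 82 pairs, 11 passed the filter only through their DMSO libraries, and 10 of these were lower, the exception being Il1r2 in endothelium. They include 2 pairs of Il1a, 3 of Il1rn and 2 of the 5 calls, Il1b and Il1r2 in principal cells. Another 5 passed only through their BPTES libraries, and all 5 were higher. Pairs chosen in this way differ by construction, so these counts are a description and support nothing. The 5 calls were Il1a in dendritic cells, Il1b in T cells and principal cells, and Il1r2 in macrophages and principal cells. As given below, 3 of them rest largely on 1 cell in each DMSO library.

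**Figure D1:**
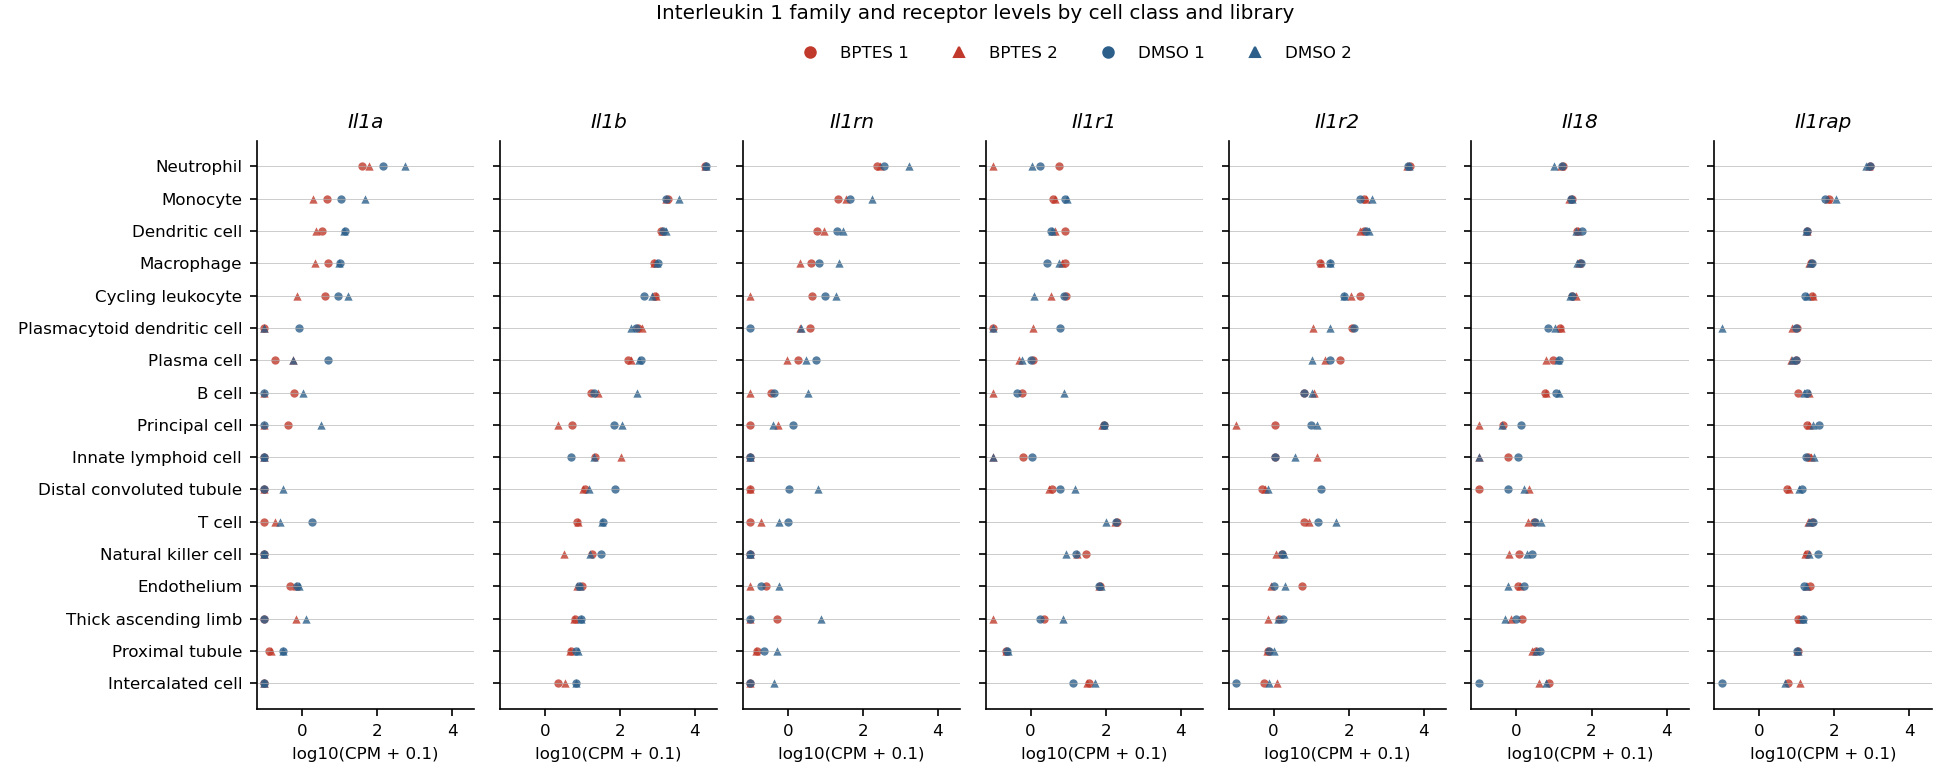
Unscaled level of each gene, as log10(CPM + 0.1), in the 17 tested classes (rows) for the BPTES libraries (red) and DMSO libraries (blue), with circles for replicate 1 and triangles for replicate 2. Neutrophils lead for Il1a, Il1b, Il1rn, Il1r2 and Il1rap, T cells for Il1r1, and macrophages and dendritic cells for Il18.

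Il1a was highest in neutrophils, with lower levels in classical monocytes and type 2 dendritic cells. In unscaled CPM it reached 40.7 and 62.5 (BPTES) and 142 and 554 (DMSO) in neutrophils, 8.41 and 2.76 against 17.7 and 77.8 in classical monocytes, and 3.65 and 1.94 against 16.4 and 16.6 in type 2 dendritic cells. The order of the last 2 is not fixed by these libraries, since their ranges overlap. In monocytes most Il1a UMIs lay in the 37 to 62 cells per library that held 3 or more neutrophil markers (26 of 36 and 9 of 16 under BPTES, 67 of 68 and 155 of 168 under DMSO), and the other monocytes stood at 1.66 and 1.04 unscaled CPM against 0.191 and 5.56. In type 1 dendritic cells it stood at 2.86 and 2.80 against 2.35 and 4.66, where the groups overlap. Of all Il1a UMIs, 31.0% and 55.4% lay in neutrophils under BPTES, against 28.7% and 66.9% under DMSO. The rest came mostly from dendritic cells, macrophages and monocytes.

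In dendritic cells Il1a fell: 3.35 and 2.23 CPM under BPTES against 14.0 and 13.7 under DMSO, a log2 fold change of -2.31 (SE 0.19) with an adjusted p of 0.0179 by edgeR. Both BPTES libraries lay far below both DMSO libraries, and 1.11% of all genes tested in this class were called. The difference did not rest on 1 cell: without the highest cell of each library the unscaled levels were 2.64 and 1.66 against 12.5 and 11.3. Without cells holding UMIs of 3 or more neutrophil markers, a setting added after the data were seen, the change was -2.66 (adjusted p 0.0219). Without BPTES 1 the change was -2.63 and without BPTES 2 it was -2.05, in fits with 1 BPTES library left. The call was lost in both, as was every other call of this class, while the direction stayed. The call was lost with finer clustering, which moved many of these cells to the macrophages (-0.72, adjusted p 0.262). The cluster named for type 2 dendritic cells held 1717 cells before and 753 after. A cluster of 971 cells led by Spic, Fn1 and Mmp12 was then named for macrophages. It had 172 and 166 cells under BPTES against 418 and 215 under DMSO. The name of the cells behind this call thus depends on the clustering. In that finer clustering Il1a was called in macrophages instead (-2.27, adjusted p 0.0338).

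In macrophages Il1a stood at 4.64 and 2.19 CPM against 10.6 and 9.92 (-1.56, SE 0.32, adjusted p 0.0720, and 0.00480 by DESeq2), in a class where 1.37% of genes were called. In monocytes it stood at 4.56 and 1.90 against 10.6 and 47.9 (-3.11, adjusted p 0.380, 0.771% of genes called) and in neutrophils at 42.4 and 66.0 against 146 and 508 (-2.60, adjusted p 0.571, 0% of genes called by edgeR). The neutrophil values do not overlap, but DMSO 2 exceeded DMSO 1 by more than DMSO 1 exceeded either BPTES library. No gene passed edgeR's threshold in neutrophils, although 641 genes were under 0.05 before adjustment. DESeq2 passed 34 there, among them Il1a (-2.54, adjusted p 0.000444). Without DMSO 2 the neutrophil difference was -1.44 with an adjusted p of 1.57e-05, and without BPTES 1 it was -2.27 with an adjusted p of 0.0189. The monocyte difference passed without DMSO 2 (-1.73, adjusted p 0.0430), with DMSO 1 as the only DMSO library, but the groups overlapped without cells holding 3 or more neutrophil markers, as given above, and finer clustering turned the sign (0.44). In cycling leukocytes Il1a stood at 4.12 and 0.670 against 9.07 and 16.3 (-2.20, adjusted p 0.623), where 0% of genes were called by edgeR and 26 genes by DESeq2, with 922 genes under 0.05 before adjustment.

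The share of neutrophils with at least 1 Il1a UMI was 7.88% and 5.76% under BPTES, 9.54% in DMSO 1 and 48.8% in DMSO 2 (exact 95% binomial interval 42.9% to 54.7%), at median depths of 8760 to 9264 UMIs. With each cell thinned to 1000 UMIs the shares were 1.97% and 2.62% against 4.15% and 24.2%. In proximal tubule cells, which are not known as a source of Il1a, the share was 0.0745% to 0.455% at median depths of 15360 to 18596 UMIs. The share that carried Il1a was larger in DMSO 2 than in the other 3 libraries. The intervals of those were 6.15% to 14.0% (DMSO 1), 4.57% to 12.5% (BPTES 1) and 2.91% to 10.1% (BPTES 2). These intervals cover the counting of cells within 1 library and hold no spread between libraries, so they do not compare the groups.

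Il1rn, the antagonist, was likewise highest in neutrophils and classical monocytes. The monocytes include the cells with 3 or more neutrophil markers described above for Il1a. Neutrophil markers summed to 3594 and 4608 unscaled CPM in monocytes under BPTES, against 2373 and 4806 under DMSO. In unscaled CPM it reached 241 and 281 against 359 and 1659 in neutrophils, 26.0 and 47.8 against 45.9 and 263 in classical monocytes, 18.2 and 13.2 against 42.8 and 39.9 in nonclassical monocytes, and 8.0 and 13.7 against 23.0 and 39.4 in type 2 dendritic cells. Neutrophils held 41.4% to 70.5% of its UMIs. Il1rn was called in 0 of 7 classes by edgeR, with 4 at an unadjusted p under 0.05, and in 1 class by DESeq2. That class was the dendritic cells, with 5.90 and 9.08 CPM against 20.4 and 30.6 (-1.76, SE 0.30, adjusted p 0.0734 by edgeR and 8.32e-08 by DESeq2). The BPTES libraries lay below the DMSO libraries, and without cells holding 3 or more neutrophil markers the difference passed edgeR's threshold (-2.12, adjusted p 0.0420). Without DMSO 2, with 1 DMSO library left, the call was also gained, at a change of -1.45. In all, the difference passed in 6 of 13 alternative settings, with changes from -2.12 to -1.44.

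In neutrophils, monocytes and macrophages DMSO 2 was far above the other libraries for Il1rn. Neutrophils stood at 251 and 297 CPM against 369 and 1523 (-1.79, adjusted p 0.580), monocytes at 21.8 and 35.7 against 44.4 and 177 (-1.90, adjusted p 0.506) and macrophages at 3.91 and 2.03 against 6.66 and 22.8 (-2.30, adjusted p 0.263). DMSO 1 lay above the BPTES libraries by a smaller step in each. Cycling leukocytes stood at 4.47 and 0 against 10.1 and 18.9 (-2.42, adjusted p 0.623) and plasma cells at 1.90 and 1.07 against 4.32 and 2.93 (-1.31, adjusted p 0.300), where DMSO 1 was the highest library. In plasma cells 11 of the 12 Il1rn UMIs of DMSO 1 lay in 3 cells with 3 or more neutrophil markers, and without such cells the unscaled levels were 0.737 and 0.427 against 0.611 and 2.96, which overlap. The share of neutrophils with an Il1rn UMI was 68.0% and 63.9% against 69.3% and 87.7%, and after thinning to 1000 UMIs 19.7% and 18.3% against 16.6% and 56.7%, so that DMSO 1 did not exceed the BPTES libraries on the thinned scale. In proximal tubule cells the unthinned share was 0.0785% to 0.887%.

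**Figure D2:**
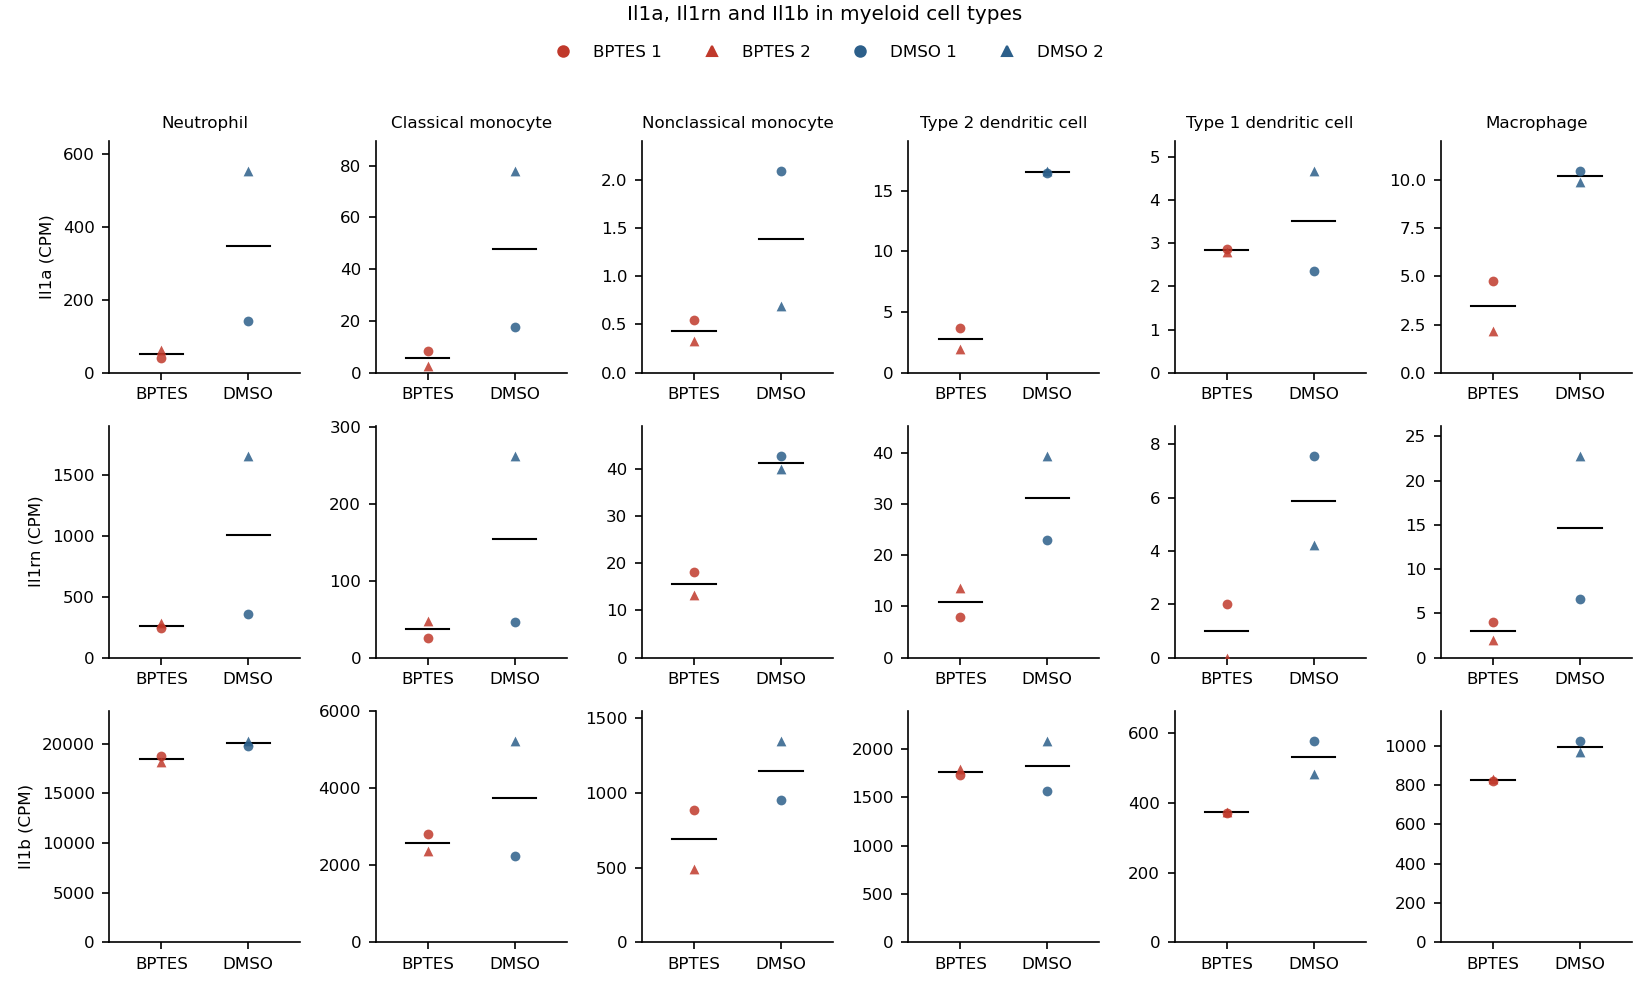
Unscaled CPM (vertical axes, each from 0) of Il1a, Il1rn and Il1b in 6 myeloid types for each library, with circles for replicate 1, triangles for replicate 2 and a bar at the mean of the group. For Il1a both DMSO libraries lie above both BPTES libraries in every panel except type 1 dendritic cells, and DMSO 2 stands far above the others for Il1a and Il1rn in neutrophils and classical monocytes, while Il1b overlaps between groups in classical monocytes and type 2 dendritic cells.

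Il1b was by a wide margin the most abundant member. Neutrophils led with 18767 and 18146 unscaled CPM under BPTES and 19751 and 20290 under DMSO, and practically every neutrophil carried it (99.7% to 100%). Classical monocytes followed with 2809.9 and 2369.8 against 2248 and 5233, type 2 dendritic cells with 1736 and 1790.1 against 1567 and 2087, and nonclassical monocytes (883 and 495 against 951 and 1350.3) overlapped with macrophages (818 and 832 against 1024 and 966). Of the monocytes' Il1b UMIs, 9862 of 14612 and 11125 of 14376 (BPTES) and 6164 of 10625 and 9670 of 13191 (DMSO) lay in cells with 3 or more neutrophil markers. Neutrophils held 36.2% to 42.9% of all Il1b UMIs, dendritic cells 23.4% to 37.3%, macrophages 12.1% to 14.1% and monocytes 8.28% to 16.1%.

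In the classes that held most Il1b no change passed the test. Neutrophils stood at 19539 and 19178 CPM against 20329 and 18625 (-0.0088, SE 0.22, adjusted p 0.992), with overlapping groups. Dendritic cells stood at 1257 and 1311 against 1398 and 1688 (-0.26, SE 0.098, adjusted p 0.181), macrophages at 801 and 843 against 1037 and 967 (-0.29, SE 0.086, adjusted p 0.120) and monocytes at 1853 and 1710.4 against 1662 and 3759.9 (-0.60, adjusted p 0.664). Both DMSO libraries lay above both BPTES libraries in dendritic cells and macrophages, but not in monocytes, where DMSO 1 was the lowest of the 4. Without the cells holding 3 or more neutrophil markers, both DMSO libraries lay above both BPTES libraries in monocytes too (854 and 1504.8 against 788 and 483 unscaled CPM), with a change of -0.92 (adjusted p 0.371).

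The test of the difference itself, an interaction of class and treatment with the library as a block, passed the threshold for Il1b (adjusted p 0.0391), in a test that called 1.08% of 16083 genes. The same test gave adjusted p values of 0.262 for Il1r1, 0.276 for Il1r2, 0.405 for Il1rap, 0.446 for Il18, 0.934 for Il1rn and 1 for Il1a. Without cells holding 3 or more neutrophil markers the value for Il1b was 0.300, without BPTES 1 or BPTES 2 it was 0.939 or 1, and without the low-count filter 0.0783. The largest Il1b estimates were those in principal cells, B cells, innate lymphoid cells and T cells, in each of which few cells carried most of its UMIs in at least 1 library or 1 library stood apart.

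In T cells Il1b fell from 36.2 and 32.5 CPM under DMSO to 7.15 and 7.59 under BPTES (-2.22, SE 0.13, adjusted p 0.00151), where 0.169% of genes were called. T cells are not known as a main source of IL-1 beta. Within the class, the difference lay in gamma delta T cells, at 4.49 and 5.54 unscaled CPM against 111 and 149. In DMSO 1 the highest T cell held 341 of 443 Il1b UMIs and in DMSO 2 the highest held 230 of 403, while no T cell of the BPTES libraries held more than 2. Without the highest cell of each library the unscaled levels were 7.06 and 7.24 against 8.40 and 13.9. Without cells holding 3 or more neutrophil markers the change was -1.78 with an adjusted p of 0.318. The summed neutrophil markers were at 52.9 and 46.2 unscaled CPM against 40.4 and 63.9, with all 6 markers above 0 in every library. Relative to neutrophils, the highest marker stood at 5.51% and 4.61% under BPTES against 2.81% and 1.11% under DMSO. The median marker stood at 0.0232% and 0.0242% against 0.0327% and 0.111%, higher in both DMSO libraries.

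Principal cells of the collecting duct gave the same picture for Il1b and Il1r2. Il1b fell from 70.2 and 112 CPM to 5.29 and 2.30 (-4.50, SE 0.39, adjusted p 0.0137), where 0.744% of genes were called. The highest cell held 151 of 170 and 342 of 369 Il1b UMIs in the DMSO libraries, and without the highest cell the unscaled levels were 4.74 and 1.78 against 8.0 and 8.36. For Il1r2 the BPTES libraries held 3 and 0 UMIs and the DMSO libraries 24 and 48, a 22.2-fold ratio of the summed libraries (exact 95% interval 7.30 to 110.1, counting error only), with an adjusted p of 0.0216 by edgeR. The highest cell held 22 of the 24 and 48 of the 48 UMIs. Neutrophil markers summed to 7.68 and 7.95 unscaled CPM against 47.2 and 52.3 in this class. Without the 3 cells that held 3 or more of them, all in DMSO libraries, Il1b changed by -1.05 (adjusted p 0.411), and Il1r2 fell under the filter on low counts. Removing doublets at 2 times the rate gave -1.18 (adjusted p 0.299) for Il1b. Without DMSO 2 the Il1r2 estimate was -4.02 with an adjusted p of 0.172, beside -4.33 in the whole set, both with 1 BPTES library at 0.

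**Figure D3:**
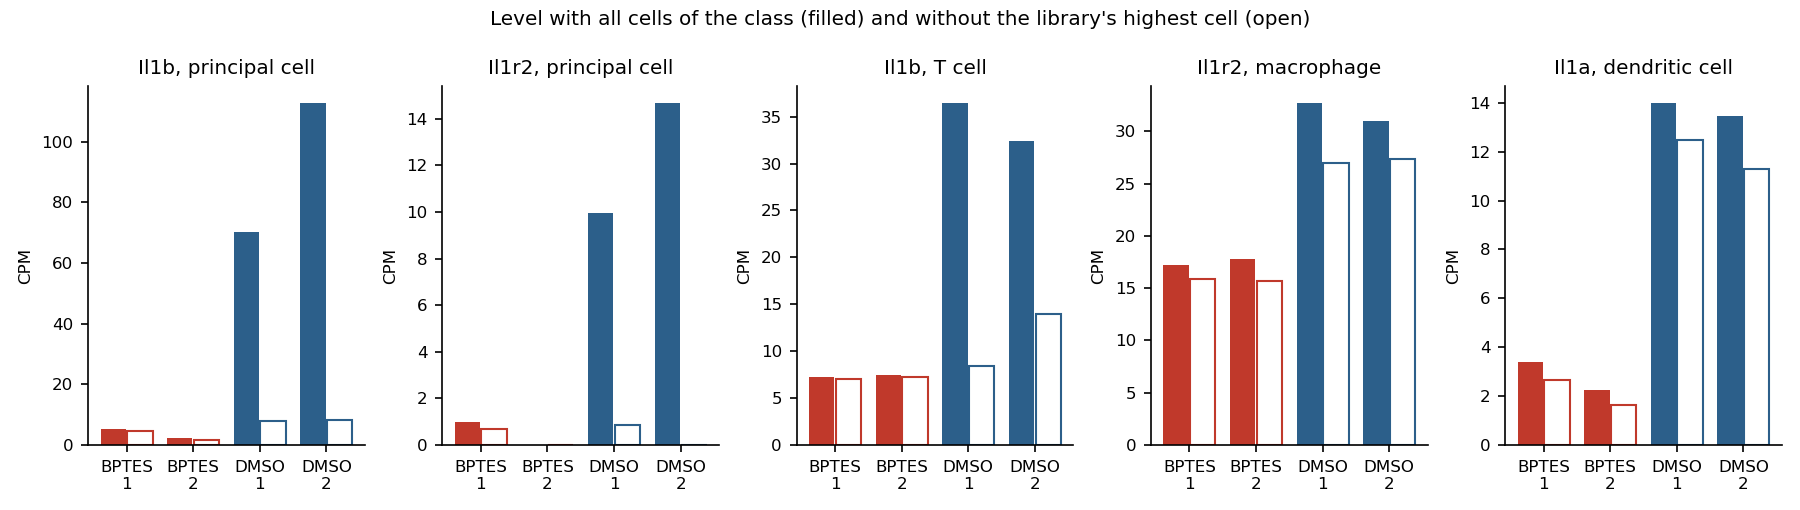
Unscaled CPM (bars from 0) of the 5 called pairs in each library, with all cells of the class (filled) and without the cell of that library with the most UMIs of the gene (open). In principal cells and T cells most of the DMSO level goes with 1 cell, while in macrophages (Il1r2) and dendritic cells (Il1a) both DMSO libraries stay above both BPTES libraries when that 1 cell is left out.

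The same unevenness touched pairs that did not pass. In innate lymphoid cells Il1b stood at 21.9 and 109 CPM against 5.16 and 20.4 (2.35, adjusted p 0.738, 0.406% of genes called), and 1 cell of BPTES 2 held 146 of its 156 UMIs. In distal convoluted tubule cells it stood at 12.3 and 10.8 against 69.7 and 15.1 (-1.76, adjusted p 0.528, 0.0572% of genes called), with 125 of 148 UMIs of DMSO 1 in 1 cell. Without DMSO 2, which leaves that library alone, the difference passed (-2.60, adjusted p 8.49e-05). Il1r2, which was under the low-count filter in this class, was also called without DMSO 2 (-5.12, adjusted p 0.0097), with 37 of its 38 UMIs of DMSO 1 in 1 cell. In plasma cells Il1b stood at 174 and 248 against 290 and 331 (-0.56, adjusted p 0.228, 1.48% of genes called), and the 3 highest cells held 42.6% and 44.7% of the UMIs against 95.4% and 84.8%. Without plasma cells holding 3 or more neutrophil markers the unscaled Il1b levels were 104 and 121 against 22.6 and 334, which overlap. In B cells Il1b stood at 17.1 and 27.3 against 20.3 and 301 (-2.88, adjusted p 0.637), and the high value belongs to the library whose B cells also carry macrophage markers. No gene was called by edgeR in B cells (0% of genes, with 825 genes under 0.05 before adjustment and 5 passing in DESeq2). In natural killer cells Il1b stood at 17.6 and 3.21 against 31.8 and 16.3 (-1.31, adjusted p 0.683, 0.275% of genes called), and without DMSO 2 the change was -1.61 (adjusted p 0.0102). In DMSO 1, 25 of 39 Il1b UMIs lay in 1 natural killer cell with 3 or more neutrophil markers, and without it the unscaled levels were 17.7 and 3.17 against 11.9 and 15.9, which overlap.

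Beside the innate lymphoid cells, cycling leukocytes and plasmacytoid dendritic cells had higher Il1b under BPTES, without passing the threshold. Cycling leukocytes stood at 860 and 949 CPM against 441 and 708 (0.65, SE 0.24, adjusted p 0.623), and plasmacytoid dendritic cells at 316 and 390 against 277 and 201 (0.54, SE 0.20, adjusted p 0.985, 0.0448% of genes called). The groups did not overlap in either class, which held 298 and 204 cells in all. In BPTES 1, however, 4 cycling leukocytes with 3 or more neutrophil markers held 947 of 2503 Il1b UMIs, and 1 such plasmacytoid dendritic cell held 153 of 402. Without such cells the unscaled levels were 633 and 937 against 416 and 676 in cycling leukocytes and 204 and 385 against 276 and 195 in plasmacytoid dendritic cells, so that the groups overlapped in both. The 6 neutrophil markers summed to 201 unscaled CPM in the cycling leukocytes of BPTES 1, against 15.9 to 52.9 in the other libraries, and to 549 against 22.8 to 25.1 in plasmacytoid dendritic cells. In proximal tubule cells, the most numerous class, Il1b stood at 4.84 and 4.88 against 6.16 and 7.69 (-0.51, SE 0.14, adjusted p 0.119), Il1a at 0.0335 and 0.0555 against 0.195 and 0.205 (-2.18, adjusted p 0.0898) and Il1rn at 0.0503 and 0.0444 against 0.133 and 0.401 (-2.43, adjusted p 0.118). In this class 0.654% of genes were called, and Il1a and Il1rn passed the low-count filter there only through the DMSO libraries. These 3 levels are traces: 4 to 39 Il1a or Il1rn UMIs per library, over 4396 to 5366 cells, beside summed neutrophil markers at 7.78 and 9.25 unscaled CPM against 11.1 and 9.88 whose part in the result was not tested. In thick ascending limb cells Il1b stood at 6.62 and 6.53 against 9.04 and 8.15 (-0.37, adjusted p 0.949, 0.103% of genes called), and in intercalated cells at 2.35 and 3.44 against 6.90 and 6.16 (-1.12, adjusted p 1). The intercalated cells held 5 and 6 Il1b UMIs under BPTES and 2 and 20 under DMSO, with 23 cells in DMSO 1. This pair passed the low-count filter only through the DMSO libraries. Intercalated cells had 0% of genes called by edgeR and 15 genes by DESeq2, with 247 genes under 0.05 before adjustment.

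**Figure D4:**
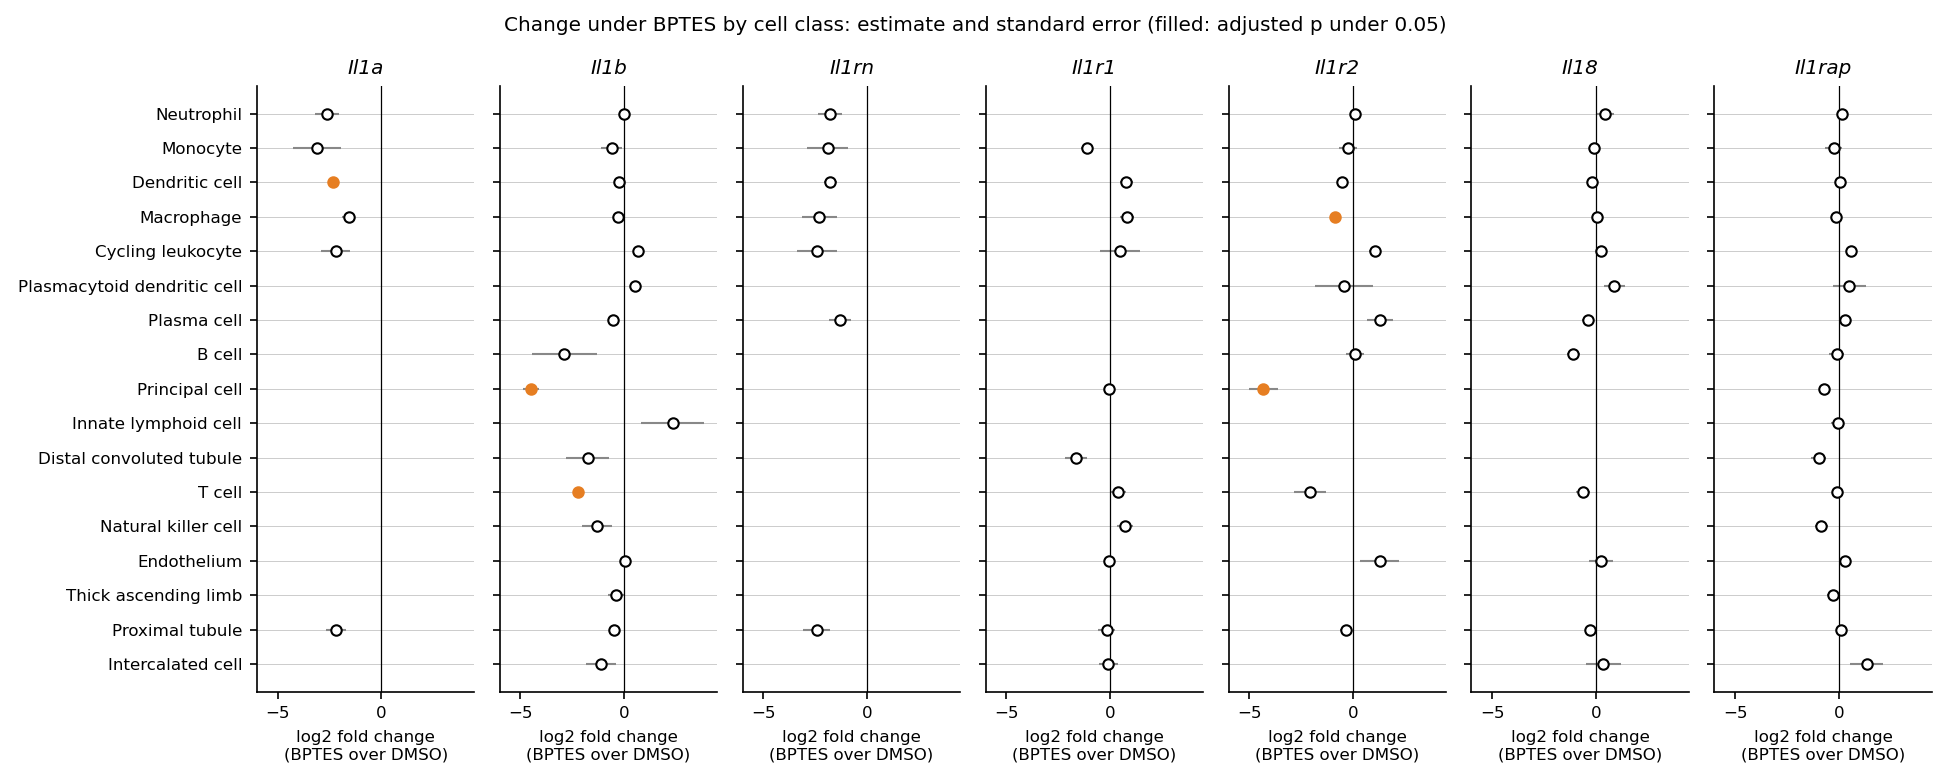
Log2 fold change (BPTES over DMSO, horizontal axes) with its standard error for each gene in each class that passed the low-count filter, with the 5 pairs of an adjusted p under 0.05 filled in orange. All estimates of Il1a and Il1rn lie left of 0, whereas those of Il18, Il1rap and Il1r1 lie on both sides.

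Il1r1, the receptor that signals, was found in other cells than its ligands. Gamma delta T cells led with 692 and 800.4 unscaled CPM under BPTES and 658 and 647 under DMSO, followed by fibroblasts (137 and 156 against 143 and 153), principal cells (89.5 and 78.2 against 88.2 and 89.6) and endothelium (71.2 and 66.8 against 66.2 and 74.5). Gamma delta T cells and fibroblasts stood above all others in each library, and the ranges of principal cells and endothelium did not overlap. T cells held 51.7% and 62.6% of the Il1r1 UMIs under BPTES and 58.4% and 27.4% under DMSO. Neutrophils, the class with the highest Il1b level, had an Il1r1 UMI in 0% to 1.48% of cells. A count of 0 in the 191 neutrophils of BPTES 2 allows a share of cells with a UMI of up to 1.57%.

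Il1r1 did not pass the threshold in any of 11 classes by edgeR or DESeq2, with 4 at an unadjusted p under 0.05. T cells stood at 199 and 181 CPM against 186 and 101 (0.41, adjusted p 0.672), endothelium at 70.7 and 67.8 against 65.8 and 75.0 (-0.025, SE 0.090, adjusted p 0.955) and principal cells at 88.6 and 81.4 against 87.9 and 89.2 (-0.056, SE 0.14, adjusted p 0.899). The groups overlapped in each of these 3. The unadjusted values under 0.05 pointed both ways, higher in dendritic cells (7.88 and 4.28 against 3.39 and 3.63) and macrophages (8.08 and 6.64 against 2.75 and 5.48), and lower in monocytes (3.80 and 4.28 against 8.29 and 9.41) and distal convoluted tubule cells (3.81 and 3.10 against 5.65 and 15.1). The adjusted p values of these 4 were 0.195, 0.221, 0.112 and 0.212, and without DMSO 2 macrophages passed (1.45, adjusted p 0.0398). Removing doublets at 2 times the rate turned the sign in dendritic cells (-0.34) and macrophages (-0.70). In the cluster named for regulatory T cells Il1r1 stood at 47.4 and 44.9 unscaled CPM against 32.2 and 30.8, a finer type that was not tested. This cluster of 1194 cells had Cd4 and Cd40lg but not Foxp3 among its 10 leading genes. With finer clustering, 440 cells were named for regulatory T cells in a cluster with Foxp3 among its leading genes. Another cluster, of 744 cells led by Cd40lg, was named for CD4 T cells.

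Il1rap, the accessory chain, was the most widely found receptor gene and passed the filter in all 17 classes. It was highest in neutrophils (867 and 816 unscaled CPM against 908 and 688) and next in classical monocytes (120.3 and 93.5 against 85.8 and 176). Most Il1rap UMIs of the monocytes lay in cells with 3 or more neutrophil markers, and the other monocytes stood at 19.5 to 25.6 unscaled CPM. Proximal tubule cells, at 10.5 and 11 CPM against 9.34 and 10.2, held 17.0% to 23.1% of its UMIs through their number. It was called in 0 of 17 classes by edgeR and by DESeq2, with 5 at an unadjusted p under 0.05 and a median log2 fold change of -0.058. In dendritic cells it stood at 18.5 and 19.0 against 18.9 and 17.5 (0.045, SE 0.092) and in macrophages at 23.1 and 21.3 against 25.3 and 22.7 (-0.11, SE 0.10). The groups overlapped in both. In principal cells it stood at 17.9 and 22.1 against 37.6 and 27.4 (-0.70, SE 0.23, adjusted p 0.220). The other unadjusted values under 0.05 pointed both ways. They were lower in distal convoluted tubule (-0.96) and natural killer cells (-0.83). They were higher in cycling leukocytes (25.1 and 26.8 against 15.9 and 18.1, 0.61) and endothelium (22.4 and 18.4 against 15.3 and 17.6, 0.32).

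Il1r2, the decoy, shared the cell types of the ligands and not those of Il1r1. Neutrophils led with 4269 and 3593 unscaled CPM against 3887 and 3965, then classical monocytes with 482 and 443 against 348 and 680.4 and type 2 dendritic cells with 349 and 268 against 335 and 451, whose ranges overlap. In neutrophils the test gave 0.11 (SE 0.22, adjusted p 0.886). In dendritic cells it stood at 248 and 195 CPM against 292 and 349 (-0.53, SE 0.15, adjusted p 0.130), with no overlap, and DESeq2 called it (adjusted p 0.00613). In monocytes it stood at 248 and 291 against 206 and 428 (-0.22, adjusted p 0.861). Monocytes in the libraries include 37 to 62 cells that hold 3 or more neutrophil markers and most of the Il1r2 UMIs, and without them Il1r2 changed by -1.67 (SE 0.24, adjusted p 0.0257).

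In macrophages Il1r2 fell from 33.1 and 31.0 CPM to 16.9 and 18.0 (-0.88, SE 0.094, adjusted p 0.0218). The libraries of a group lay close together and without the highest cell the unscaled levels were 15.8 and 15.6 against 27.0 and 27.4. Cells with 3 or more neutrophil markers held 397 of the 657 UMIs in DMSO 2 (24 cells), 53 of 566 in DMSO 1, 22 of 255 in BPTES 1 and 5 of 231 in BPTES 2. Without them the change was -0.37 (adjusted p 0.749), and the unscaled levels were 16.7 and 18.0 against 31.5 and 13.1, so that DMSO 2 became the lowest library and the groups overlapped, beside summed neutrophil markers of 66.2 and 67.2 unscaled CPM against 77.0 and 138 in the whole class. The call was also lost with finer clustering (-0.64, adjusted p 0.0548). Without BPTES 1 or BPTES 2 the change stayed at -0.81 (adjusted p 0.145) or -0.93 (adjusted p 0.169), in fits where edgeR called 0 genes of this class (2123 and 1600 under 0.05 before adjustment). In T cells Il1r2 stood at 6.24 and 8.66 against 15.5 and 46.7 (-2.06, adjusted p 0.370, and called at -1.06 without DMSO 2). In cycling leukocytes it was higher under BPTES, at 196 and 115 against 74.5 and 75.7 (1.06, adjusted p 0.623). There 4 cells of BPTES 1 with 3 or more neutrophil markers held 263 of 571 Il1r2 UMIs. Without such cells the unscaled levels were 125 and 113 against 75.9 and 75.1.

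Il18, whose product signals through a receptor pair of its own, was spread evenly over macrophages (50.3 and 46.6 unscaled CPM against 52.9 and 40.4), type 1 dendritic cells (44.9 and 46.2 against 51.3 and 42.6), type 2 dendritic cells (37.1 and 40.3 against 56.3 and 35.5) and classical monocytes (46.3 and 31.8 against 43.0 and 36.3). The ranges of these 4 types overlap, so their order is not fixed. It was called in 0 of 12 classes by edgeR and by DESeq2, with 1 at an unadjusted p under 0.05. Macrophages stood at 49.2 and 47.2 CPM against 53.5 and 40.4 (0.040, SE 0.14, adjusted p 0.897), dendritic cells at 39.3 and 42.2 against 55.5 and 37.9 (-0.20, SE 0.19, adjusted p 0.586) and proximal tubule cells at 3.16 and 2.65 against 3.90 and 3.13 (-0.27, SE 0.17, adjusted p 0.383). The groups overlapped in all 3. Without DMSO 2, dendritic cells gave -0.45 (adjusted p 0.00614), and without DMSO 1 the sign turned (0.10). The unadjusted value under 0.05 was in B cells, at 5.78 and 5.98 against 10.8 and 14.0 (-1.08, adjusted p 0.617).

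The genes around this family were read from 4 lists. They were chosen with earlier results of these data known, so their shares of calls are a description only. The list for maturation and release (inflammasome sensors, the adaptor Pycard, caspases and the pore former Gsdmd) held 14 genes in 184 tested pairs, of which 2 rose and 4 fell (3.26% of the pairs, against 0.501% over all genes). The adaptor Pycard fell in macrophages from 104 and 118 CPM to 78.8 and 69.7 (-0.58, SE 0.099, adjusted p 0.0457), in dendritic cells from 159 and 161 to 123 and 119.8 (-0.40, adjusted p 0.0434) and in principal cells (-0.79, adjusted p 0.0343). The call in principal cells was not made by DESeq2 (adjusted p 0.201), and 1 cell held 57 of 245 Pycard UMIs in DMSO 1. Without cells holding 3 or more neutrophil markers edgeR gave nearly the same fold, just over the threshold (-0.78, adjusted p 0.0501). Casp4, the mouse inflammatory caspase-11, fell in T cells (-0.64, adjusted p 0.0265). Txnip, which binds thioredoxin and is known to bind NLRP3, rose in dendritic cells (0.49, adjusted p 0.0301) and innate lymphoid cells (0.75, adjusted p 0.0399). None of the calls of this list was for a caspase-1 or NLRP3 transcript. The list for signal transduction (17 genes from Myd88 to Rela, 283 pairs) had 0 calls by edgeR and 1 by DESeq2, with 27 pairs under 0.05 before adjustment.

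Other members of the family (12 genes, 80 pairs) included 2 pairs that rose and 3 that fell, 6.25% against 0.501% over all genes. Both chains of the IL-18 receptor rose in macrophages, Il18r1 from 46.3 and 53.2 CPM to 73.7 and 72.6 (0.55, SE 0.092, adjusted p 0.0455) and Il18rap from 28.6 and 24.5 to 40.9 and 42.8 (0.66, SE 0.10, adjusted p 0.0395), in the class where Il18 itself gave 0.040. Lymphocytes are known to carry both chains, and of the 3109 cells named macrophages 887 lay in a cluster with a median depth 2.08 times that of all kept cells of the same libraries, whose leading genes include the T cell gene Cd8b1. In the whole class the 7 natural killer cell markers summed to 74.9 and 88.9 unscaled CPM under BPTES and 44.5 and 66.8 under DMSO, with 1 of them at 0 in DMSO 1, and the 6 CD8 T cell markers to 440 and 449 against 322 and 474, none at 0. Their part in the result was not tested. Il33, an alarmin of the family, fell in endothelium from 113 and 118 to 75.8 and 74.5 (-0.62, SE 0.078, adjusted p 0.00785), where 0.594% of genes were called, and its receptor gene Il1rl1 fell in dendritic cells (-0.63, adjusted p 0.0395). Il1f6, which codes for IL-36 alpha, fell in distal convoluted tubule cells from 62.2 and 39.1 CPM to 4.23 and 1.03 (-4.14, SE 0.46, adjusted p 0.0263). Its UMIs lay in 9 and 24 cells of the DMSO libraries and in 2 and 2 cells of the BPTES libraries, and 1 cell held 63 of 132 in DMSO 1 and 7 of 10 in BPTES 1. DESeq2 gave no adjusted p for this pair.

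Among 19 genes known to be induced by IL-1 (167 pairs), 12 calls were lower and 1 higher, 7.78% of the pairs against 0.501% over all genes. As the list was chosen with earlier results of these data known, this share supports nothing. The monocyte chemokine Ccl2 fell in macrophages from 134 and 182 CPM to 36.3 and 31.0 (-2.23, SE 0.18, adjusted p 0.0286) and in monocytes (-1.25, adjusted p 0.0247). The neutrophil chemokine Cxcl2 fell in macrophages (-1.12, adjusted p 0.0322). Vcam1, an adhesion molecule, fell in macrophages (-0.70, adjusted p 0.0335), endothelium (-0.87, adjusted p 0.00994) and proximal tubule (-2.98, adjusted p 0.0138), and Il6 fell in endothelium from 9.77 and 14.7 to 4.48 and 3.26 (-1.63, SE 0.26, adjusted p 0.0271). The proximal tubule level of Vcam1 was a trace, at 1.56 and 2.57 CPM under DMSO and 0.243 and 0.278 under BPTES. Its UMIs lay in 90 of 5160 and 127 of 4396 cells under DMSO, and in 26 of 5366 and 17 of 5094 under BPTES. In proximal tubule Cxcl1, another neutrophil chemokine, fell from 0.868 and 1.49 to 0.0587 and 0.155 (-3.51, adjusted p 0.0242) and Nfkbiz, a nuclear regulator of NF-kB, fell (-0.67, adjusted p 0.0281). In T cells the NF-kB inhibitor Nfkbia fell (-0.66, adjusted p 0.0371, and 0.0500173 at the same fold without cells holding 3 or more neutrophil markers).

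The other 3 calls of this list rest largely on 1 cell per library. In principal cells Cxcl2 (-4.88, adjusted p 5.9046e-05) had 102 of 106 and 151 of 162 DMSO UMIs in 1 cell, and Ptgs2, the inducible cyclooxygenase, was at 0 UMIs in both BPTES libraries, against 37 and 25 in the DMSO libraries with 24 in 1 cell of each. Against a limit of 3 UMIs over the BPTES group, the summed DMSO level of Ptgs2 was 19.1-fold higher. That ratio covers the counting error of the BPTES side only and is no lower bound for principal cells. Without the highest cell of each library the DMSO levels were 5.47 and 0.310 unscaled CPM. In plasmacytoid dendritic cells Cxcl2 rose (4.18, adjusted p 0.00915) with 80 of its 81 and 80 of its 80 UMIs in 1 cell of each BPTES library. The median log2 fold change of the induced genes was -0.41 over the 167 pairs and lay between -0.66 in proximal tubule and 0.0095 in cycling leukocytes, with -0.17 in neutrophils and -0.52 in macrophages, against -0.028 to 0.0035 over all genes of a class. Such genes can pass the low-count filter through their DMSO libraries alone, and many signals other than IL-1 induce them. Across the 4 lists 24 pairs were called, of which 19 were called again without cells holding 3 or more neutrophil markers. DESeq2 called 22 and did not call Pycard in principal cells.

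**Figure D5:**
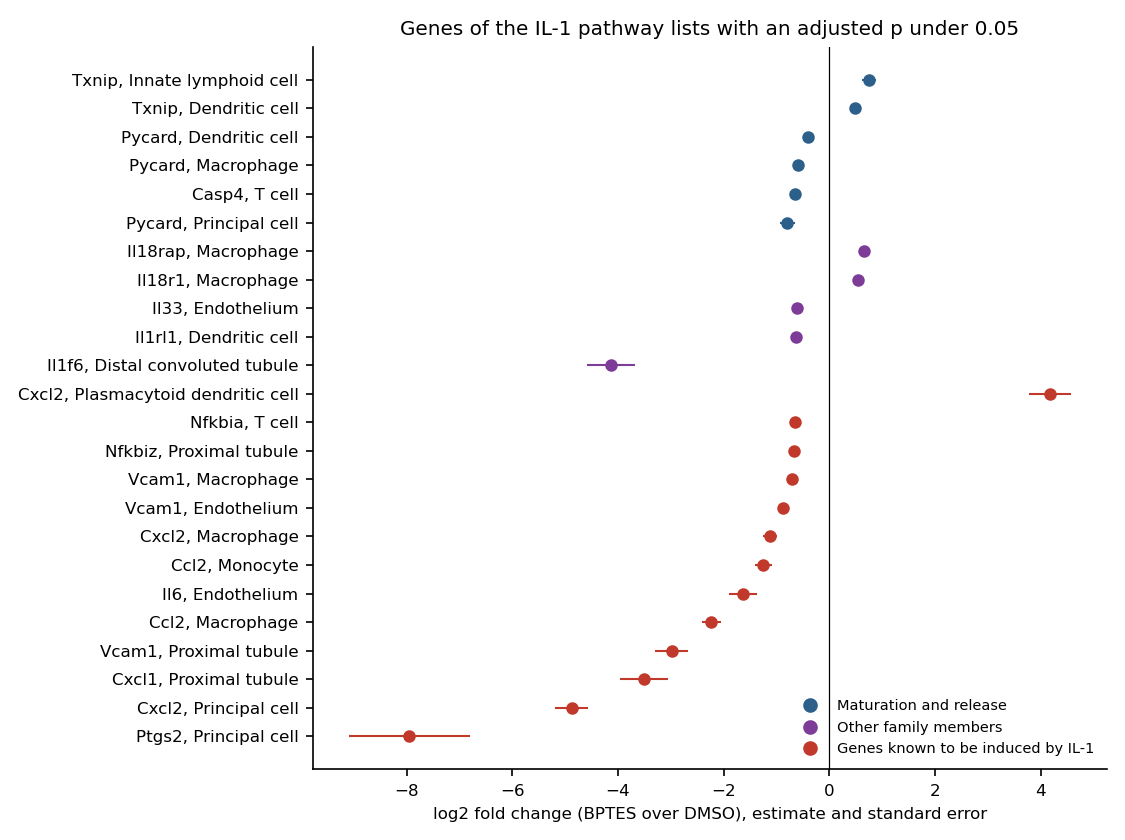
Log2 fold change with its standard error for the 24 pairs of a pathway gene and a class at an adjusted p under 0.05, coloured by list. Of these, 19 lie left of 0, and the pairs farthest from 0 (Ptgs2 and Cxcl2 in principal cells, Cxcl2 in plasmacytoid dendritic cells) are those that rest largely on 1 cell per library.

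Across 22 cell types the levels of the agonists, the antagonist and the decoy varied together, as a description over types that share libraries. Pearson correlations of log2(CPM + 1) were 0.86 for Il1a with Il1b, 0.92 for Il1a with Il1rn, 0.90 for Il1b with Il1rn and 0.91 for Il1b with Il1r2. Il1r1 stood apart, with -0.26 to -0.02 against the other 6. The genes most like Il1b were Nlrp3 (0.974), Ptafr (0.969) and C5ar1 (0.959), which code for the inflammasome sensor NLRP3 and the receptors for platelet-activating factor and complement C5a. Those most like Il1a were Ptgs2os2 (0.961), the Il1b antisense gene Il1bos (0.957) and Gm28981 (0.937), and those most like Il1rn were Vnn3 (0.968), Hcar2 (0.966) and Clec4d (0.964). For Il1r2 they were the chemokine receptor gene Ccr1 (0.953), Cxcl2 (0.918) and Ptgs2os2 (0.915), and for Il1rap 2810474O19Rik (0.918), Gm2511 (0.910) and Ankrd22 (0.909). For Il1r1 they were Abi3bp (0.805), Ppp1r14c (0.782) and Mrc2 (0.770), and for Il18 the inflammasome sensor gene Nlrp1a (0.948), Gm20703 (0.932) and Gm46224 (0.927).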

How the data were processed

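The deposited values are whole-number UMI counts per gene and cell barcode, as the 10x matrices give them. Cell Ranger 8.0.1 and the build mm10 are named in the submitters' processing notes, while the annotation is not given in the sources used here. Barcodes were kept with at least 500 UMIs, 300 genes and at most 50% mitochondrial UMIs, and doublets were removed by score at 0.4% per 1000 barcodes. Cells were clustered (3000 variable genes, 40 components, Leiden resolution 1) without the 7 genes and the 13 mitochondrial genes, and clusters were named from 30 marker lists if at least 3 markers were detected. A cluster also stayed without a name if its leading genes held more markers of another class than of its own. The same held for a cluster of low depth with no marker of its own among its leading genes. Names rest on markers: the cluster named for CD4 T cells is led by Il4, Klrc2 and Zfp683, and no cluster was named for mature dendritic cells.

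Counts were summed per library and class and tested with edgeR 4.0.16 (quasi-likelihood, TMM, filterByExpr, robust), with Benjamini-Hochberg adjustment over all genes of the class. An adjusted p under 0.05 is a call, and a fold change is log2 of BPTES over DMSO. The difference between classes was tested as an interaction with the library as a block. DESeq2 1.42.0, other scaling, no filter, blocks, left-out libraries, a 25% mitochondrial limit, more doublets removed and resolution 2 were the alternatives, and leaving out cells with neutrophil markers and crossed blocks were added after seeing the data. The fit was checked on simulated counts. Named are the 7 genes in every class tested, called genes of the 4 lists (up to 6 per class) and for each member the 3 genes of highest Pearson correlation over types. The 7 genes, the lists and the tests were chosen with earlier results of these data known. Intervals and limits (3 counts) cover counting error only.

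Gene positions are from GENCODE annotation of GRCm38, and promoters, matched by symbol for all 7 genes, from RefSeq (GRCm38.p6). Counts of genes that overlap a gene on the other strand, such as Il1b and Il1bos, may share reads. Clusters without a name and the added tdTomato sequence were left out of tests.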

Additional observations from a re-analysis of the deposited data

Results flagged for a closer look

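The effect of BPTES on Il1b differed between the 17 classes in a test of the difference itself (interaction of class and treatment, edgeR, adjusted p 0.0391). Both groups' libraries lay apart in T cells (7.15 and 7.59 CPM under BPTES, 36.2 and 32.5 under DMSO) and principal cells (5.29 and 2.30 against 70.2 and 112), while they overlapped in neutrophils, the class with the highest level. In both classes 1 cell of each DMSO library held most of the Il1b UMIs (341 of 443 and 230 of 403 in T cells, 151 of 170 and 342 of 369 in principal cells). Without the highest cell of each library the unscaled levels were 7.06 and 7.24 CPM against 8.40 and 13.9 in T cells and 4.74 and 1.78 against 8.0 and 8.36 in principal cells. Across the settings tried, the adjusted p ranged from 0.00410 (without DMSO 1) to 1 (without BPTES 2). It was 0.0402 with RLE scaling, 0.0347 without DMSO 2, 0.0783 without the filter on low counts and 0.300 without cells that hold 3 or more neutrophil markers.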

How the results depend on the processing

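The number of called pairs of a member and a class was 5 as reported, 9 with DESeq2, 19 without the low-count filter, 12 with the replicate block, 8 with the crossed replicate block, 3 without cells holding 3 neutrophil markers, and 4 to 25 with a library left out (6 without BPTES 1, 4 without BPTES 2, 25 without DMSO 1, 13 without DMSO 2). Over all genes 969 calls became 3270 with DESeq2, 10400 without the filter, 5204 with the replicate block, 2412 with the crossed block, 1883 at Leiden resolution 2, and 710 to 10661 with a library left out (3059, 710, 10661 and 5401 in the same order). With a library left out, the lone library of a group is assumed to vary like the others. The labels give both groups the numbers 1 and 2 without saying that they mark pairs, and same-numbered libraries correlated by -0.11 to 0.38 across classes, so the block is a check only. It lost Il1r2 in principal cells (-4.30, adjusted p 0.0535) and gained 8 pairs: Il1rn in dendritic cells (adjusted p 0.0021), Il1a, Il1b and Il1rn in proximal tubule (0.0111, 0.00693 and 0.00719), Il1b (2.25e-07) and Il1r1 (0.0295) in distal convoluted tubule, Il1b in innate lymphoid cells (6.02e-05) and Il1r2 in plasma cells (0.0235). The replicate block called 2449 of 15890 genes in proximal tubule and 1102 of 10493 in distal convoluted tubule, against 104 and 6 as reported. It called 446 of 13916 in dendritic cells, 156 of 8857 in innate lymphoid cells and 228 of 11175 in plasma cells. With the crossed block the 3 proximal tubule pairs and Il1a in monocytes (-3.04, adjusted p 0.00545) were called and Il1r2 in macrophages was lost. The crossed block called 1013 of 15890 genes in proximal tubule. Of the 7 members, 1 differed between classes as reported, 0 without the filter, 0 without BPTES 1, 0 without BPTES 2, 0 without cells holding neutrophil markers and 3 without DMSO 1. Directions that turned were all of pairs that were not called. With a library left out, the range was -0.074 to 0.10 for Il1b in neutrophils, -3.76 to 0.11 in B cells and -1.08 to 0.088 in monocytes; -0.67 to 0.38 for Il1r2 in monocytes; -0.11 to 0.075 for Il1r1 in endothelium and -0.12 to 0.013 in principal cells; -0.086 to 0.53 for Il1rap in neutrophils and -0.70 to 0.33 in monocytes; and -0.13 to 0.25 for Il18 in macrophages and -0.45 to 0.10 in dendritic cells. Il1b in neutrophils was 0.0077 with RLE scaling, 0.030 with DESeq2 and 0.031 with the doubled doublet rate, which also turned Il1r1 in principal cells (0.13), dendritic cells (-0.34) and macrophages (-0.70). Resolution 2 turned Il1a in monocytes (0.44), Il1r2 in neutrophils (-0.26), Il1rap in neutrophils (-0.21) and Il18 in macrophages (-0.17) and dendritic cells (0.14). The cause of these shifts was not tested. The doubled doublet rate left 15 classes and resolution 2 left 16.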
